A study of Mus musculus with 374 samples.

Results

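Assays 63, 89 and 90 are 3 of the 81 TaqMan assays read by quantitative PCR in 374 sorted cells of the mouse embryonic heart. They were chosen by their detection in these same cells: each was found in a minority of cells, and all were found largely in the same ones. Their detection and co-detection are therefore given below as a description, with no test. Assays carry numbers and no gene names in the table, so the 3 transcripts are called by their assay numbers and nothing is said of their function.

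The cells came from embryos at embryonic day 10.5 with the genotype Nkx2-5Cre/+;ROSA26mTmG/+, and no other genotype or treatment was used. In these embryos Cre is made from 1 allele of Nkx2-5, a gene for a transcription factor of the early heart. Recombination of the ROSA26mTmG reporter switches a cell and its descendants to membrane GFP. Sorting on GFP limits the cells to those with a history of Nkx2-5 expression, so cardiac cells without it are not represented. The labels name 9 dissected zones with 36 to 47 cells each: left atrium, right atrium, atrioventricular canal, left ventricle, left septum, right ventricle, right septum, proximal outflow tract and distal outflow tract. They name no animal, and how many embryos gave the cells is not given in the sources used here.

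At this stage the heart tube is being remodelled into chambers. The atrioventricular canal and outflow tract carry cushions that later form valves and septa, and the ventricular septum begins to grow between the ventricles. Muscle, endocardial lining and cushion mesenchyme lie close together in the dissected zones, so a zone can hold several cell types, and probes that mark a cell type need not mark a zone.

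The columns of the table carry running numbers up to 383, with 9 numbers not used, and 0 of the 374 names matched a sample label. No column was given to a zone on the strength of its order, and levels by zone were not analysed here. All cells were treated as 1 sample. An array takes 96 inputs, and the column numbers were divided into 4 runs of that length, which are used below as possible technical batches. The labels tie neither arrays nor zones to these runs by name. In the order listed, they give all 9 zones mixed, then the atria and atrioventricular canal. The left ventricle, left septum and right ventricle follow, and then the right septum and outflow tract. Whether the columns follow that order was not tested. If they do, the runs differ in zone as well as in any batch, so run and zone cannot be told apart. Intervals are exact 95% binomial (Clopper-Pearson) intervals, which reflect counting error alone.

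The threshold cycle (Ct) counts the PCR cycles needed until product is seen, so more template gives a lower Ct. A Ct of at most 28 counted as detection, and the 334 cells with at least 10 assays detected were kept, between 79 and 90 per run. Assay 63 was detected in 44 of them (13.2%, interval 9.74 to 17.3%). Assay 89 was detected in 46 (13.8%, interval 10.3 to 17.9%) and assay 90 in 37 (11.1%, interval 7.92 to 14.9%). These shares lie near the low end of the panel, where the median over assays was 40.7%. Only 3 of the 81 assays had a lower share than assay 90, 6 had a lower share than assay 63, and 8 had a lower share than assay 89.

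Most cells had either all 3 assays or none. In 281 cells none was detected, in 34 all were (10.2%, interval 7.15 to 13.9%), in 13 only 1 was, and in 6 exactly 2 were. Assay 90 was the member most tied to the others. It was never detected alone, and 36 of its 37 cells also had assay 63 (97.3%, interval 85.8 to 99.9%). Assay 89 accompanied assay 90 in 35 of 37 cells (94.6%, interval 81.8 to 99.3%). In the other direction, 35 of the 46 cells with assay 89 had assay 90 (76.1%, interval 61.2 to 87.4%). Assay 89 was alone in 8 cells and assay 63 in 5. The phi coefficient, the correlation of 2 yes-or-no readings over the 334 cells, was 0.88 for assays 63 and 90, 0.83 for assays 89 and 90, and 0.79 for assays 63 and 89. All 3 pairs met the rule by which the assays had been grouped, a difference of at least 60 percentage points in both directions, as did 0.802% of all 3240 pairs of assays. By the same rule, which counts only positive links, 0 pairs joined a member to any assay outside the 3. The assays were grouped by this rule in these same cells, so nothing is read from that count.

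The 13 cells with only 1 member mostly showed it later than the cells with all 3. In the 34 cells with all 3, assay 63 had a lowest Ct of 17.48, a median of 19.22 and a highest of 22.59. In the 5 cells with assay 63 alone, the lowest Ct was 20.96, the median 23.75 and the highest 27.64. The groups overlap, since 2 of the 5 lone values, at 20.96 and 22.18, lie inside the range of the 34. For assay 89, the 34 cells ranged from a Ct of 17.90 to 24.16 with a median of 19.85, and the 8 lone cells from 21.34 to 25.64 with a median of 23.41. Of the lone detections, 7 of 8 for assay 89 lay in runs 1 and 4, and 3 of 5 for assay 63 in run 1. Assay 90 was earlier and tight in the 34 cells, with a lowest Ct of 15.51, a median of 17.40 and a highest of 20.07. Its SD of 0.84 cycles was the second smallest among the 22 assays, members included, that were detected in at least 20 of these 34 cells. Assay 63 had the fifth smallest SD (1.11 cycles) and assay 89 the ninth (1.24 cycles). Assay 94, the most widely detected assay of the panel, had an SD of 0.93 cycles in the same cells.

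**Figure D1:**
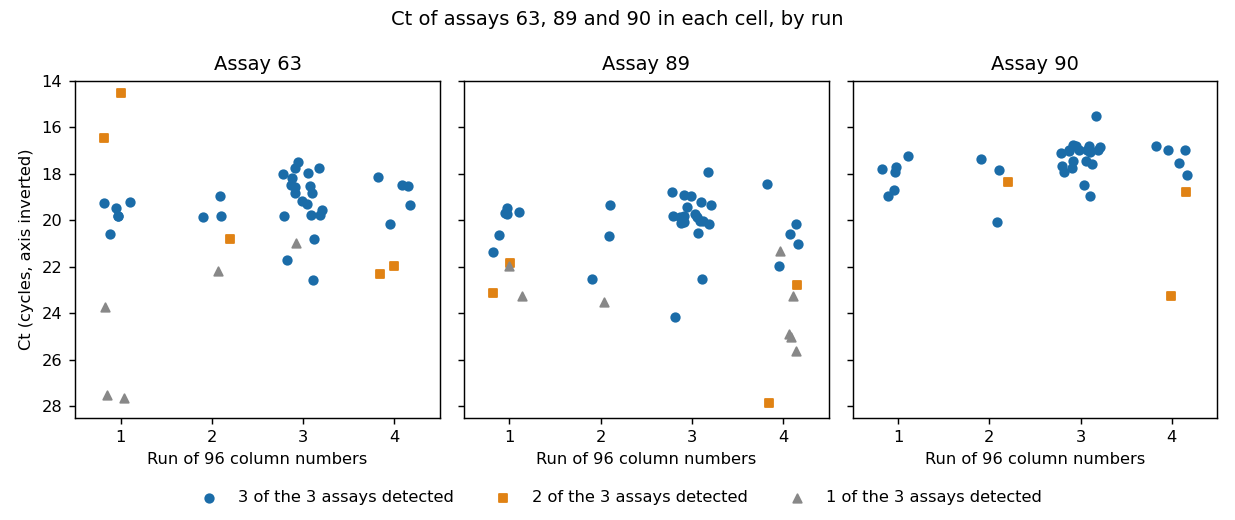
Ct of assays 63, 89 and 90 (vertical axis, in cycles and inverted so that more template is higher) in every cell in which each was detected, by run of 96 column numbers (horizontal axis). Circles are cells with all 3 assays, squares cells with 2 and triangles cells with 1. The circles keep to a Ct between 15.51 and 24.16, the triangles lie mostly lower, and no triangle appears for assay 90.

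Few readings lay near the detection limit. Just inside it were assay 89 at a Ct of 27.89 and assay 63 at 27.64 and 27.51. Just outside it was assay 63 at a Ct of 30.44, in a cell with neither of the others. In the 40 cells below the minimum of 10 assays, 0 had a member detected, which allows a share of up to 7.5% if 3 counts are taken as the limit, and up to 8.81% by the exact interval.

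Among the 6 cells with exactly 2 members, those without assay 90 differed from those with it in how many other assays were detected. The 3 cells with assays 63 and 89 but not 90 had 45, 56 and 63 of the 78 other assays detected. These counts are above all 34 cells with all 3 members, which had from 12 to 37. The earliest 2 readings of assay 63 in the table, at a Ct of 14.51 and 16.47, belong to 2 of these 3 cells, both in run 1, and assay 90 gave a Ct of 34.86 in the first and none in the second. The third, in run 4, had assay 63 at a Ct of 22.30 and assay 89 at 27.89. Assay 94, which gave a Ct in all 34 cells with all 3 members, was not detected in 2 of these cells and came at a Ct of 27.37 in the other. The 3 cells that had assay 90 with only 1 other member had 15, 18 and 18 other assays, within the range of the 34. Whether the incomplete cells hold 1 cell per well was not tested.

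The Ct values of the 3 assays were related only in part. Over the 34 cells with all 3, Pearson's r was 0.67 (Spearman's rho 0.48) for assays 63 and 89. It was 0.48 (rho 0.50) for assays 63 and 90 and 0.40 (rho 0.38) for assays 89 and 90. The cells share their lysis, pre-amplification and run, which can move all assays of a cell together. After the median Ct of a cell's other detected assays was subtracted, r was 0.64, 0.46 and 0.33 for the same pairs. Subtracting the same value from both assays of a pair can itself raise r. Without the 2 cells farthest from the median of the first assay, r was 0.45, 0.39 and 0.49. Within run 3 r was 0.76, 0.63 and 0.61 over 20 cells, and in the other runs together it was 0.36, 0.25 and 0.05 over 14 cells. With the cell's median subtracted, r was closer between them, at 0.69, 0.54 and 0.36 in run 3 and 0.62, 0.41 and 0.3 in the others. The difference between run 3 and the rest was not tested.

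**Figure D2:**
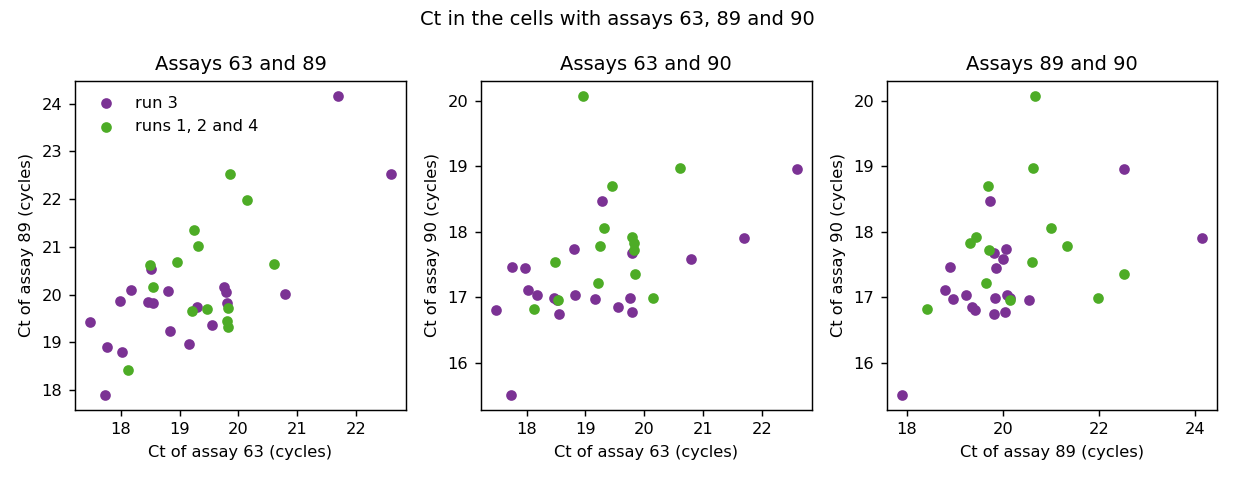
Ct of one assay against Ct of another (both axes in cycles) in the 34 cells with assays 63, 89 and 90 all detected, 1 point per cell, with the 20 cells of run 3 in purple and the 14 cells of the other runs in green. The points spread widely about a rising trend, and a pair of late cells of run 3 extends the trend for assays 63 and 89.

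Cells with 2 or 3 of the assays, called trio cells below, numbered 40. Run 3 held 20 of its 81 kept cells as trio cells (24.7%, interval 15.8 to 35.5%), and every one of them had all 3 assays. That this run held them in excess was known when the assays were chosen. Run 1 had 8 of 84 (9.52%, interval 4.2 to 17.9%), run 2 had 4 of 79 (5.06%, interval 1.4 to 12.5%) and run 4 had 8 of 90 (8.89%, interval 3.92 to 16.8%). Of cells with any member, 20 of 21 had all 3 in run 3, against 6 of 13 in run 1, 3 of 6 in run 2 and 5 of 13 in run 4. Over all runs this count was 34 of 53 (64.2%), and without run 3 it was 14 of 32 (43.8%). The share of trio cells, 12% over all runs, was 20 of 253 (7.91%) without run 3.

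The members were detected more often in run 3 than in the other runs, and most assays less often. These directions are not independent, since trio cells were more frequent in run 3 and had fewer of the other assays, as given below. The share of cells with an assay was lower in run 3 than in the other runs together for most assays, with a median difference of -9.07 percentage points, and 20 of 81 assays were higher there. Assay 90 was 18 points higher in run 3, assay 63 was 16.8 points higher and assay 89 was 14.4 points higher. All 3 were thus at least 10 points higher, as were 12.3% of all assays. These are values of cells on which the assays had been chosen, and nothing is read from the count. Within run 3 the trio cells were spread over the column numbers, with 3 of 21, 5 of 18, 4 of 21 and 8 of 21 kept cells in its successive stretches of 24 numbers.

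The Ct of each member in complete cells could be compared across runs. The median Ct of assay 63 was 19.63 in run 1 (6 cells), 19.82 in run 2 (3 cells), 18.82 in run 3 (20 cells) and 18.54 in run 4 (5 cells). That of assay 89 was 19.70, 20.68, 19.84 and 20.61 in the same order. That of assay 90 was 17.85, 17.83, 17.03 and 16.98. For each assay the ranges of all 4 runs overlapped.

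Trio cells had fewer of the other assays than most cells. The 34 complete cells had a median of 22 of the 78 other assays (quartiles 19.25 and 24), against a median of 41 (quartiles 35 and 44) in the 281 cells with none of the members. In the complete cells, 33 of 34 had under 30 other assays (97.1%, interval 84.7 to 99.9%), against 52 of 281 cells with none (18.5%, interval 14.1 to 23.5%). Trio cells made up 36 of the 92 kept cells under that number. The median in trio cells lay between 18 and 23 in each run, and in cells with none between 40 and 41. Of the 5 cells with a member and more than the median of 39 other assays, 0 had all 3.

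**Figure D3:**
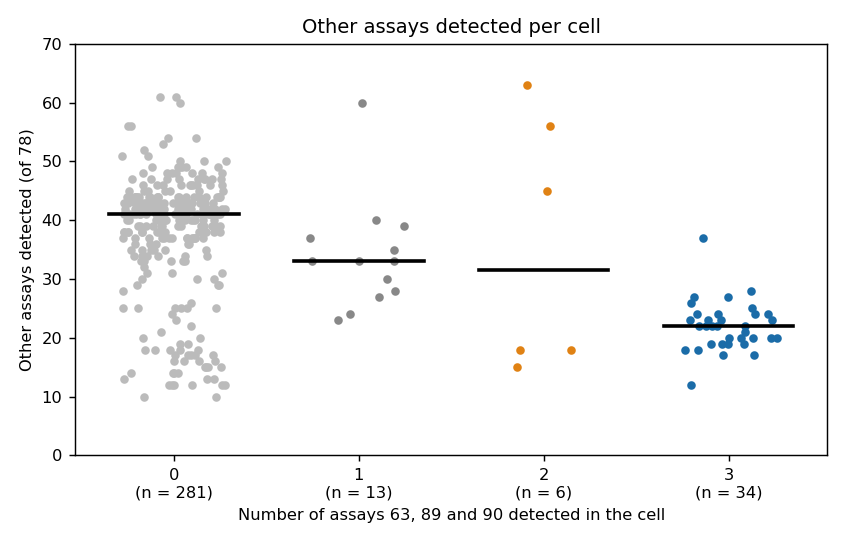
Number of the 78 other assays detected in each kept cell (vertical axis) by how many of assays 63, 89 and 90 the cell had (horizontal axis), with 1 point per cell and a bar at the median. Cells with all 3 gather between 12 and 37, near the lower of the groups into which the cells with none fall, and the cells with 2 lie both above and below them.

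The other assays split sharply between trio cells and cells with none of the members. Of 78 assays, 8 were detected in a share at least 30 points higher in trio cells (10.3%), namely assays 2, 19, 28, 33, 38, 41, 74 and 91. A share at least 30 points lower was found for 28 assays (35.9%), and the median difference over all 78 was -16.9 points. The direction was the same in all 4 runs for 7 of the 8 and for 27 of the 28. Without run 3 the higher assays numbered 6, since the difference became 20.6 points for assay 2 (44.05 over all runs) and 18.4 points for assay 19 (33.3 over all runs). Assay 2 was lower in trio cells of run 2, by -21.2 points. The cells were grouped by members that were themselves chosen by co-detection, so these are differences between cells of 1 sample and were not tested.

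The 5 assays with the highest phi coefficient with being a trio cell were 91 (0.50), 28 (0.42), 38 (0.42), 41 (0.35) and 74 (0.34), over 334 cells. They are not set against the phi values among the members, which are for pairs of assays chosen for their co-detection. Assay 91 was detected in 34 of 40 trio cells (85%, interval 70.2 to 94.3%) and in 48 of 281 cells with none (17.1%, interval 12.9 to 22%). In runs 1 to 4 in turn it was found in 6 of 8, 4 of 4, 18 of 20 and 6 of 8 trio cells. In cells with none the counts were 17 of 71, 14 of 73, 1 of 60 and 16 of 77. Run 3 thus held the clearest separation for assay 91. Assay 28 was detected in 35 of 40 trio cells (87.5%) against 26% of cells with none, and assay 74 in 33 (82.5%) against 31.7%. Assays 38 and 41 were each found in 25 trio cells (62.5%), against 12.1% and 16.7% of cells with none. All 5 were more frequent in trio cells in each of the 4 runs, by as little as 12.7 points for assay 41 in run 2, where there were 4 trio cells.

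Counted per cell, at least 4 of these 5 assays were detected in 28 of 40 trio cells (70%, interval 53.5 to 83.4%) and in 2 of 281 cells with none (0.712%, interval 0.0863 to 2.55%). By run the count was 8 of 8 trio cells in run 1, 2 of 4 in run 2, 15 of 20 in run 3 and 3 of 8 in run 4. The 5 had been selected on the same cells, and such joint counts follow from their single shares, so nothing is read from them about links among the 5.

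The 5 assays with the lowest phi coefficient were 50 (-0.71), 87 (-0.53), 88 (-0.52), 56 (-0.52) and 37 (-0.51). Assay 50 was detected in 8 of 40 trio cells (20%, interval 9.05 to 35.6%) and in 270 of 281 cells with none (96.1%, interval 93.1 to 98%). Where it was detected in trio cells it came late, at a lowest Ct of 19.37, a median of 20.02 and a highest of 23.50. In cells with none its Ct ranged from 10.87 to 24.88 with a median of 13.97. Of the 46 kept cells that lacked assay 50, 32 were trio cells, 3 had 1 member and 11 had none. Assay 87 was detected in 3 trio cells, all in run 1, against 83.6% of cells with none. Assays 88 and 56 were each detected in 4 trio cells (10%), against 84% and 82.6%, and assay 37 in 9 (22.5%) against 86.5%. In 26 of the 40 trio cells none of these 5 was detected, and in 10 only 1 was, whereas 203 of 281 cells with none of the members had all 5. Another 2 trio cells had 4 of the 5, and 2 had all 5. These were the 3 cells with assays 63 and 89 but not 90, and 1 complete cell.

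**Figure D4:**
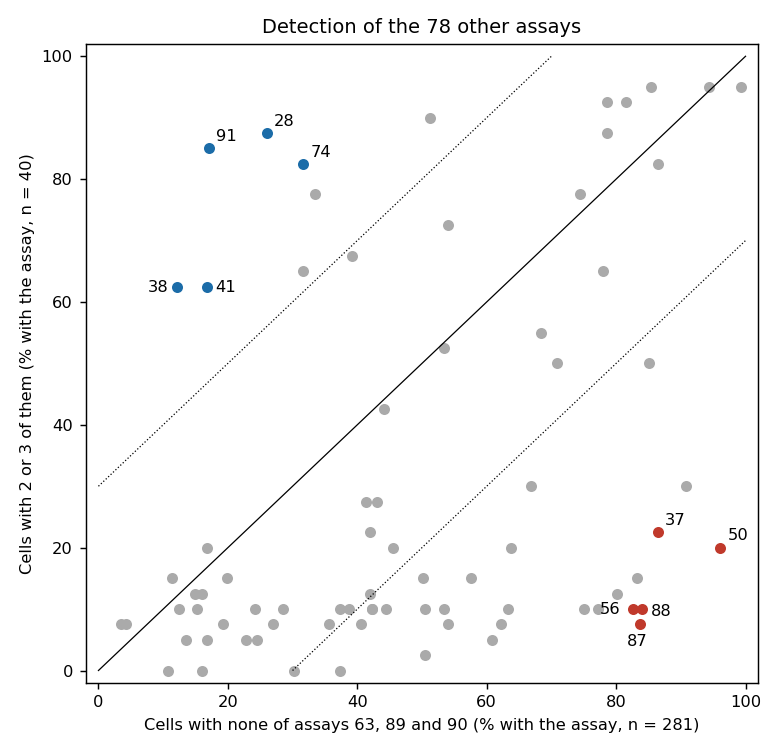
Share of trio cells (vertical axis, %) against share of cells with none of assays 63, 89 and 90 (horizontal axis, %) in which each of the 78 other assays was detected. The solid line marks equal shares and the dotted lines a difference of 30 points, with the 5 assays of highest phi in blue and the 5 of lowest phi in red. Assay 91 stands at 85% against 17.1% and assay 50 at 20% against 96.1%.

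Since trio cells had fewer assays in all, each was also set against the cells of its own run that had none of the members and the nearest number of other assays. The nearest number differed by a median of 1 assay and by at most 3. The same cell with none could serve for several trio cells. In run 3 the cell with column number 264 and 18 other assays was nearest to trio cells with 18, 19 and 20. A few cells thus weigh heavily in the matched differences. The median difference over the 78 assays then became -2.81 points. Cells were matched on the number of these same 78 assays, so higher and lower differences must nearly cancel. The shift of the median and of the counts below toward balance thus follows largely from the matching, and nothing is read from it. All 8 assays that had been at least 30 points higher remained so, assay 19 at 30 points, and 13 were in all. Of the 28 that had been lower, 13 remained so by at least 30 points, 2 had turned higher, and 14 were lower in all. Assay 91 then differed by 74.4 points, assay 28 by 75.8, assay 38 by 55.4, assay 41 by 45.6 and assay 74 by 58.8. Some assays outside the highest 5, named here after their values were seen, differed as much from the matched cells. Assay 55 differed by 71.0 points (11.01 unmatched), assay 33 by 61.5 (38.8 unmatched) and assay 34 by 48.8 (9.59 unmatched). The size of these differences rests on low shares in the matched cells. Assay 55 was found in 21.46% of matched cells against 81.49% of all cells with none. For assay 34 the shares were 46.25% and 85.41%, and for assay 33 they were 28.54% and 51.25%. Assay 50 differed by -65 points, assay 57, outside the lowest 5, by -60, assay 88 by -55, assay 37 by -54.2 and assay 87 by -52.5. Assay 56 dropped to a difference of -18.8 points.

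Assays 64, 65 and 67, the other group of co-detected minority assays in the panel, were found in a minority of trio cells and of the rest. They were detected in 5, 6 and 6 of 40 trio cells (12.5%, 15% and 15%) and in 16%, 11.4% and 19.9% of cells with none. The interval of each share in trio cells spans the share in cells with none.

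Some assays that were detected in most cells differed in Ct. Detection in at least 90% of trio cells was found for assays 17, 33, 34, 55, 94 and 95, which were taken up for this reason after their values were seen. Assay 33 was detected in 36 of 40 trio cells at a median Ct of 19.30 (quartiles 17.77 and 20.80), against 24.84 (quartiles 23.48 and 26.32) in the 144 cells with none in which it was detected. Its median was earlier in trio cells in every run, at 18.56 against 24.05 in run 1, 19.70 against 24.77 in run 2, 19.38 against 24.60 in run 3 and 20.71 against 25.97 in run 4. Assay 95 came at a median Ct of 19.89 in trio cells against 23.33, and was earlier in every run too. Assay 94 was the reverse, at a median Ct of 15.44 against 13.88. Assay 17 had medians of 17.02 and 17.80, assay 34 of 17.71 and 18.06, and assay 55 of 20.09 and 19.48, with quartile ranges that overlapped. For the 5 assays of highest phi, the median Ct in trio cells was earlier for assays 91 (18.90 against 22.60) and 28 (19.66 against 22.36). Assays 38 (21.65 against 22.39) and 41 (22.55 against 22.70) had closer medians. Assay 74 had pooled medians of 19.91 and 18.47, but its direction differed between runs. It was later in trio cells in run 1 (20.08 against 18.65) and run 2 (19.68 against 17.48) and earlier in run 3 (19.82 against 21.45) and run 4 (21.14 against 21.69). Run 2 gave 53 of the 89 cells with assay 74 and no member, but 4 of the trio cells. Ct values were not normalized, and the part of the amount of RNA per cell in these differences was not tested.

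**Figure D5:**
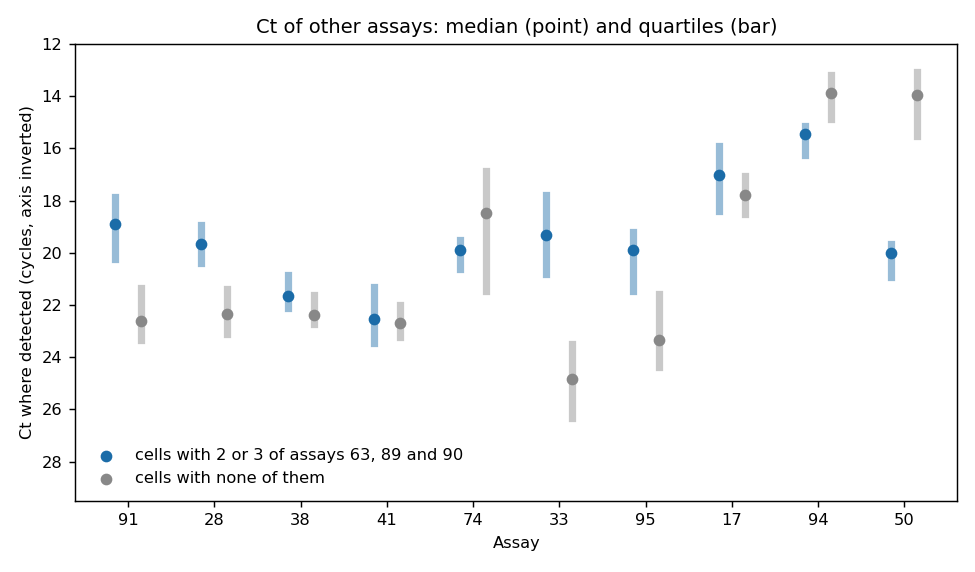
Median Ct (points) and quartiles (bars) of 10 assays where detected, in trio cells (blue) and in cells with none of assays 63, 89 and 90 (grey), with the vertical axis in cycles and inverted. Assay 33 is earlier in trio cells (19.30 against 24.84), and assays 94 and 50 are later.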

How the data were processed

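Single cells were sorted, lysed, reverse transcribed, pre-amplified with TaqMan assays and read on Fluidigm 96x96 arrays in a Biomark machine, as the labels' protocols state. Ct values are used as the authors deposited them, in 1 table where 999 marks a reaction without a Ct. What software, threshold and quality filters were applied is not given in the labels or the file. The table has 374 columns, all outside the sample labels by name, and they were pooled as 1 sample.

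The members, the limit of Ct 28, the minimum of 10 assays and the lists were chosen with earlier results of these data known. The named assays were the members, the 5 others with the highest and the 5 with the lowest phi coefficient. Marker genes could not be used without gene names, so cell types and doublets were not called and the labelled tissue was not checked. With 1 sample no test between groups was made. The code for the pair rule and for the comparison of other assays was tested on simulated data. Nothing about the real cells is read from that test. It cannot tell whether lower shares in trio cells follow from the smaller number of assays detected in them. Alternatives were other detection limits, cell filters, leaving out each run, Ct minus the cell's median, cells split at the median number of other assays, and cells matched on run and on that number. The computing environment was Python 3.11.15 with scipy 1.17.1, pandas 2.3.3, numpy 2.4.6 and matplotlib 3.10.9.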

Additional observations from a re-analysis of the deposited data

Results flagged for a closer look

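Outside the detection limit, 6 of the 1122 reactions of assays 63, 89 and 90 gave a Ct above 28 (0.535%, interval 0.196 to 1.16%). They were assay 63 at a Ct of 30.44, 34.31 and 36.98, assay 89 at 36.59 and 37.06, and assay 90 at 34.86. In 2 of the 6 the cell had another member detected, and 1 lay in a cell left out for having 6 assays. Late values made up 4.51% of the members' reactions with a Ct, against 5.57% over all assays.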

How the results depend on the processing

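Of 210 recomputed values, 199 kept to the limits set for them and 11 moved past. The limits were the 95% interval for a share, 1 SD over cells for a median Ct, 1.5 times for a count of assays, and a difference of still at least 30 points in the same direction for a single assay. These limits are wide, and most settings share most of their cells. Within them, the median Ct of assay 89 went from 20.16 to 21.61 without run 3. The lower assays went from 28 to 20 with no cell filter, and to 33 without the 3 cells that had assays 63 and 89 but not 90. Without run 3 the share of trio cells was 7.91% in place of 12%, that of assay 63 was 9.09%, that of assay 90 was 6.72%, and complete cells made up 43.8% of cells with a member. Among cells with more other assays than the median cell, complete cells made up 0%. With the cell's median Ct subtracted, the members' median values were -1, -0.20 and -3.04 cycles for assays 63, 89 and 90, a different scale by construction. Matching on run and number of assays gave 13 higher and 14 lower assays in place of 8 and 28, and -18.8 points for assay 56. The move of these counts toward balance follows largely from matching on the number of the same assays. The alternatives without the 3 cells that had assays 63 and 89 but not 90, those on single shares by run, on Ct by limit or filter, and on other assays by limit, filter or run were chosen after seeing the data. No paired analysis was possible because no column could be tied to a sample and its replicate number by name. Tying columns to samples by their order was not tried, so this limit rests on that choice as well. The number of cells, 4 to 20 trio cells per run, limits the precision.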
